A study of Mus musculus with 8 samples.

Results

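Genes of the immune checkpoint system, 10 in number, were taken by symbol: the ligands Pdcd1lg2, Cd274, Cd80 and Cd86, and the receptors Pdcd1, Ctla4, Icos, Havcr2, Lag3 and Tigit. All 10 members have values in the nucleus table, among 22578 genes, and 7 have values in the whole-liver table, among 15283 genes. Pdcd1, Ctla4 and Tigit were not analysed here in whole liver. The members were chosen from the results of both comparisons made here, which were already known, so the values of these comparisons describe the members and the fitted p-values give no independent evidence. The tested mice were Tgfbr1 MKO, which carry floxed Tgfbr1 alleles together with LysMcre, a Cre recombinase driven by the lysozyme gene Lyz2 of macrophages, monocytes and neutrophils. The controls carry the floxed alleles alone, and every mouse had eaten a MASH diet (a diet that models metabolic dysfunction-associated steatohepatitis) for 30 weeks. Whole-liver RNA was sequenced as 3 MKO and 3 control libraries, labelled as replicates, and sorted nuclei were sequenced as 1 MKO and 1 control library, each a pool of 3 livers. The study asks how myeloid TGF-beta signalling shapes liver macrophages and metabolic liver disease.

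Checkpoint genes set how strongly a T cell answers an antigen. CD80 and CD86, made by antigen-presenting cells, stimulate the T cell through CD28 and restrain it when they meet CTLA-4 instead. PD-L1 (Cd274) and PD-L2 (Pdcd1lg2) restrain T cells through PD-1 (Pdcd1). PD-L1 can be made by many cell types, among them liver macrophages and sinusoidal endothelium, whereas PD-L2 is known mainly from dendritic cells and macrophages. ICOS is a costimulatory receptor of activated T cells, and LAG-3, TIM-3 (Havcr2) and TIGIT are inhibitory receptors of activated T cells and natural killer (NK) cells. TIM-3 is made by macrophages and dendritic cells as well.

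Both PD-1 ligand genes lie on mouse chromosome 19 and are read from the + strand (GRCm38, the assembly also called mm10; gene spans from GENCODE). Cd274 spans 29367455 to 29388095 and Pdcd1lg2 spans 29410919 to 29471161, with 22.8 kb between them. The 250 bases before each RefSeq start are shown because these neighbouring genes were the 2 members called in whole liver, and their windows differ in CpG content. They are RefSeq sequence of build GRCm38.p6 in the direction of transcription, with each CpG in capitals.
Cd274, chr19:29367188-29367437: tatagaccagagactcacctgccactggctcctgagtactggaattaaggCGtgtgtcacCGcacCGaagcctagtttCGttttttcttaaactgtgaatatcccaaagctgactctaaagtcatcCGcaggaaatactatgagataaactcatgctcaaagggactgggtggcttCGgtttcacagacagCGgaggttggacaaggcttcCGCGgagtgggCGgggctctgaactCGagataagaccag
Pdcd1lg2, chr19:29410669-29410918: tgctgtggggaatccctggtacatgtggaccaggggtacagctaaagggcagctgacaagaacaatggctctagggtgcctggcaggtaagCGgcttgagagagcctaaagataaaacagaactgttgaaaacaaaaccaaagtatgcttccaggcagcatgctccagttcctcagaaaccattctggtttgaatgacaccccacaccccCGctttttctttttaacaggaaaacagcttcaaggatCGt
The Cd274 window held 11 CpGs and was 50.4% G or C, and the Pdcd1lg2 window held 3 CpGs and was 48.4% G or C. Across the 32851 windows of the same table the medians were 6 CpGs and 52.4%. Windows of 7 members were in the table, and those of Cd86, Icos and Lag3 were not used. None of these 7 windows matched TTCNNNGAA (STAT site) or GTCTAGAC (SMAD palindrome) on either strand, which 7.02% and 0.167% of all windows held. The interferon response element (2.98% of all windows) and the NF-kappaB site (0.14%) had no match among the 7 either. A window without a match says only that those letters are not in it.

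The whole-liver libraries held 17448117 to 23986319 recovered reads in the 15283 listed genes. MKO 1 stood apart on the second principal component (20.8% of the variance), at 48.5 against -23.0 to 4.67 for the other 5 libraries. Calls of named genes that were lost without it are therefore given both ways. Tgfbr1 itself was read at 560, 857 and 735 in MKO livers and at 737, 810 and 777 in control livers, which overlap. Its log2 fold change was -0.13 ± 0.16 (SE; limma adjusted p = 0.816), and 0.035 without MKO 1. In nuclei of cluster 2, the macrophage-like cluster, Tgfbr1 was 4.87 in the MKO pool and 13.5 in the control pool. The 95% interval of the whole-liver log2 difference ran from -0.49 to 0.23, so whole-liver Tgfbr1 gives no check of the labels. All 8 hepatocyte markers were measured in whole liver and none was called in either direction.

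The ligands that antigen-presenting cells show to T cells were higher in MKO livers in every library, and the PD-1 ligand genes passed the test. Values are normalised read counts, and a gene was called at a Benjamini-Hochberg adjusted p under 0.05 over 15249 genes in limma. Pdcd1lg2, the PD-L2 gene, was read at 15.9, 21.4 and 30.8 in MKO livers, against 1.09, 0 and 0 in control livers. It was thus read in every MKO library and in 1 of 3 control libraries, with groups that do not overlap. These values stand for 66 reads in the MKO libraries together and 1 read in the control libraries together, a depth-corrected ratio of 67.2 with an exact 95% interval of 11.6 to 2693 that covers counting error only. The means were 22.7 ± 7.56 in MKO livers and 0.362 ± 0.627 in control livers (SD, n = 3 each), and Pdcd1lg2 rose by 4.16 ± 0.56 on the log2(value + 1) scale (SE; limma adjusted p = 0.00649). Without MKO 3 the adjusted p was 0.0569. The size depends on the scale for a gene read this rarely: it was 2.34 with a pseudocount of 5 (adjusted p = 0.00585) and 5.94 by DESeq2 on the recovered reads (adjusted p = 0.000316).

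Cd274, the PD-L1 gene, was read at 218, 254 and 303 in MKO livers, against 103, 106 and 56.2 in control livers. The lowest MKO library lay above the highest control library. The means were 259 ± 42.6 in MKO livers and 88.5 ± 28.0 in control livers (SD, n = 3 each), a ratio of 2.92, and Cd274 rose by 1.58 ± 0.26 on the log2 scale (SE; limma adjusted p = 0.0146). The call was lost without MKO 2 (adjusted p = 0.0716) and without MKO 3 (0.0743), while without MKO 1 it was 0.0301. Both PD-1 ligand genes overlap an annotated antisense gene, AC119228.1 at Cd274 and A930007I19Rik at Pdcd1lg2. No source used here says whether counting was stranded, and without strand the reads of a gene and its antisense partner cannot be told apart. In cluster 2 nuclei A930007I19Rik had 0.481 in the MKO pool and 0.437 in the control pool, where Pdcd1lg2 differed 11.4-fold. These pools have no replicate, and the part of antisense reads in the whole-liver values was not tested.

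The CD28 ligands showed smaller differences that missed the threshold. Cd80 (chromosome 16, 38455561 to 38496335, + strand) gave 25.6, 43.9 and 40.5 in MKO livers, against 14.1, 15.7 and 9.86 in control livers. Its log2 fold change was 1.39 ± 0.33 (SE; limma adjusted p = 0.0724), and DESeq2 on the recovered reads gave an adjusted p of 0.0348. Cd86 (chromosome 16, 36603869 to 36666081, - strand) gave 117, 115 and 93.4 in MKO livers, against 73.8, 58.8 and 26.6 in control livers. Control 3 had the lowest value of both genes, and neither gene's groups overlap. For Cd86 the log2 fold change was 1.13 ± 0.35 (SE; limma adjusted p = 0.187), and 0.71 without control 3 (adjusted p = 0.244).

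Of the receptors, Icos and Lag3 were read higher in every MKO library and Havcr2 was not. Icos (chromosome 1, 60977927 to 61000320, + strand), 62.1 kb from Ctla4, gave 26.9, 44.9 and 27.9 in MKO livers, against 11.9, 15.7 and 10.8 in control livers. Its log2 fold change was 1.28 ± 0.33 (SE; limma adjusted p = 0.0941). MKO 2 was the highest library and the other 2 MKO libraries lay close together above all controls. Lag3 (chromosome 6, 124904361 to 124911705, - strand) gave 31.7, 32.6 and 39.5 in MKO livers, against 11.9, 21 and 14.8 in control livers, with a log2 difference of 1.10 ± 0.30 (SE; adjusted p = 0.126 in limma). Havcr2 (chromosome 11, 46454935 to 46481255, + strand) gave 34.2, 30.6 and 43.3 in MKO livers, against 47.8, 40.9 and 40.4 in control livers. The Havcr2 groups overlap, since MKO 3 lay above controls 2 and 3. The interval of its log2 difference ran from -0.80 to 0.28 (95%; limma adjusted p = 0.743).

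**Figure D1:**
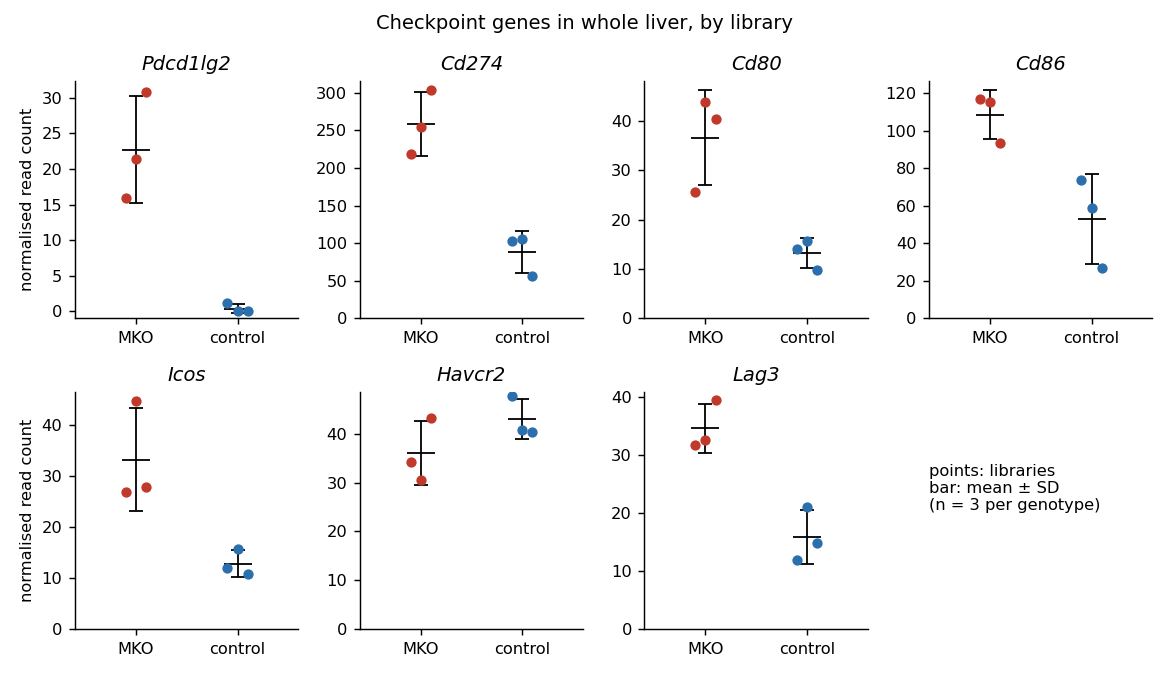
Normalised read counts of the 7 members measured in whole liver (vertical axes, 1 panel a gene), with 3 MKO libraries left of 3 control libraries, points for libraries and bars for mean ± SD. The MKO points lie above all control points for every gene but Havcr2, whose groups overlap.

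In all, 2 of the 7 members were called higher in MKO livers, beside 2.96% of all genes (452 of 15249), and 0 were called lower, beside 0.0853% (13 genes). At an unadjusted p under 0.05 in limma, 6 of the 7 were higher in MKO livers, beside 8.37% of all genes, and 0 were lower, beside 3.74%. The groups did not overlap, with MKO higher, for 6 of 7 members and 10.4% of all genes. The reverse order held for 0 members and 9.02% of all genes. The median log2 fold change was 1.28 over the 7 members and -0.02 over all genes. Leaving out MKO 2 left 1 member called and leaving out MKO 3 left 0. The authors' deposited table gave an adjusted p under 0.05 to 4 members, namely Pdcd1lg2 (0.00042), Cd274 (3.0e-07), Cd80 (0.0108) and Icos (0.0152), among 880 genes. Since the members were picked from this comparison, nothing is read from these counts.

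Per kilobase of exon, Cd274 was the most abundant of the 7 in both genotypes, at 71.4 ± 11.8 normalised reads per kb in MKO livers and 24.4 ± 7.73 in control livers (SD, n = 3 each). Cd86 followed at 29.7 ± 3.60 in MKO livers and 14.5 ± 6.59 in control livers. Lag3 stood at 16.4 ± 2.01 in MKO livers and 7.54 ± 2.20 in control livers. Havcr2 was at 13.2 ± 2.42 in MKO livers, where its library values overlap those of Lag3. In control livers Havcr2 with 15.8 ± 1.51 ranked second, within the spread of Cd86. Pdcd1lg2 had 11.6 ± 3.85 in MKO livers and 0.185 ± 0.320 in control livers. It was thus the lowest of the 7 in control livers and lay within the spread of Cd80 (9.90 ± 2.62) and Icos (9.68 ± 2.95) in MKO livers.

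Marker sums of several, but not all, of the cell types that carry these genes moved with genotype as well. The 13 macrophage markers summed to 15720 to 24590 normalised reads in MKO livers and 4497 to 10650 in control livers, a ratio of 2.72, and 9 of the 13 were called higher. The 13 T cell markers summed to 432 to 620 in MKO livers and 173 to 289 in control livers, a ratio of 2.14, with 2 of 13 called higher. The 5 measured NK markers summed to 138 to 203 in MKO livers and 52.2 to 95.5 in control livers, a ratio of 2.40, with 0 of 5 called. The 7 sinusoidal endothelial markers summed to 5875 to 6510 in MKO livers and 3872 to 5504 in control livers, a ratio of 1.33, with 2 of 7 called higher. The sums of these lists do not overlap between genotypes. The 9 conventional dendritic cell markers, which do not overlap either, summed to 668 to 746 in MKO livers and 313 to 413 in control livers, with 3 of 9 called higher. The B lineage and plasmacytoid dendritic cell marker sums did overlap, at ratios of 1.11 and 1.075, but each leans on its most abundant gene. Jchain of the B lineage list averaged 15.2 in MKO livers and 124 in control livers. The other 6 of the 7 measured B lineage markers had log2 fold changes above 0, and 0 of the 7 were called. Bst2 averaged 4100 in MKO livers, where the plasmacytoid sums were 4306 to 4861, and 3783 in control livers. In whole liver, more cells of a type and more RNA per cell cannot be told apart, and the part of these markers in the members' differences was not tested.

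Set against the macrophage marker sum of the same library, Pdcd1lg2 still separated the genotypes, and Cd274, Cd80 and Cd86 did not. Pdcd1lg2 was 0.101%, 0.101% and 0.125% of that sum in MKO livers, against 0.0102%, 0% and 0% in control livers. Cd274 was 1.39%, 1.19% and 1.23% of the sum in MKO livers, against 0.969%, 1.42% and 1.25% in control livers. These Cd274 values overlap, with a ratio of means of 1.05. The same ratio was 0.949 for Cd80 and 0.805 for Cd86, and both overlap. Havcr2 was 0.218%, 0.144% and 0.176% of the macrophage sum in MKO livers, against 0.449%, 0.547% and 0.899% in control livers. All 3 MKO shares of Havcr2 lay below all 3 control shares, at a ratio of 0.284. The Havcr2 read counts themselves overlap between genotypes, and the sum they are divided by was higher in MKO livers, at a ratio of 2.72.

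Against the T cell marker sum, Icos was 6.22%, 9.15% and 4.50% in MKO livers and 4.60%, 5.46% and 6.25% in control livers, which overlap. Lag3 overlapped too, at a ratio of means of 0.998. Havcr2 was 7.91%, 6.24% and 6.99% of the T cell sum in MKO livers and 18.4%, 14.2% and 23.3% in control livers, again without overlap. The T cell sum was likewise higher in MKO livers, while the Havcr2 read counts overlap. With 3 against 3 libraries an exact test cannot go below p = 0.1, so these shares are given as values. Cd274 against the dendritic cell markers gave 29.3%, 38.02% and 45.1% in MKO livers and 25.0%, 28.1% and 17.9% in control livers. That ratio of 1.58 became 1.04 without Zbtb46, the most abundant of those markers.

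**Figure D2:**
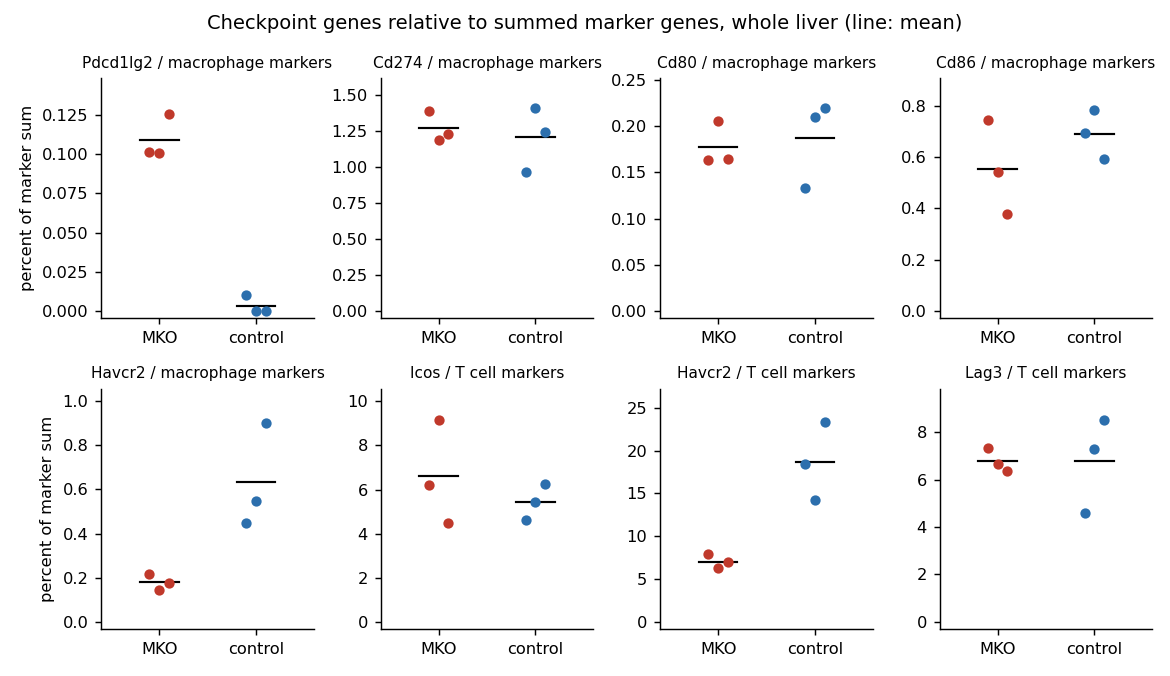
Members as a percent of the summed macrophage or T cell markers of the same whole-liver library (vertical axes), with 3 MKO libraries left of 3 control libraries and a line at each mean. The shares separate for Pdcd1lg2, higher in MKO livers, and for Havcr2, lower there although its read counts overlap. The shares overlap for Cd274, Cd80, Cd86, Icos and Lag3.

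The nuclei placed the members in cell types. Each value is the authors' mean of a gene over the nuclei of a cluster, on a scale on which the genes of a cluster sum to 10000. With 1 pool a genotype there is no replicate check and no test, and no source used here gives the number of nuclei behind a mean. A ratio is given only where the larger value reached 0.5, a level picked after the values were seen, and 2-fold was the size counted. Cluster 2 was macrophage-like, with 13 of 13 macrophage markers at least 2-fold above the other clusters' median in both pools. There 7 of 9 conventional dendritic cell markers met the same rule, so dendritic cell nuclei may be part of cluster 2. The rule also counts values near 0, and of these 9 markers only Wdfy4, Batf3 and Clec9a reached 0.5 there. Flt3 was 0.00952 in the MKO pool and 0.0747 in the control pool, and Zbtb46 was 0.0403 in the MKO pool and 0.0573 in the control pool. Cluster 7 was T cell-like with 13 of 13 T cell markers, and 7 of 7 NK markers met the same rule there, so NK nuclei may be part of it. Cluster 10 stayed unnamed because 13 of 13 macrophage and 13 of 13 T cell markers met the rule. Its leading genes Top2a, Kif11 and Mki67 are genes of cell division.

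Among the ligands, Pdcd1lg2 and Cd274 were higher in MKO macrophage-like nuclei and Cd80 and Cd86 were not. Pdcd1lg2 was 1.89 in the MKO pool and 0.166 in the control pool in cluster 2, a ratio of 11.4. Cd274 was 3.13 in the MKO pool and 1.49 in the control pool, a ratio of 2.1. Cluster 2 held the highest value of Cd274, Cd80 and Cd86 in both pools, and of Pdcd1lg2 in the MKO pool only. In the control pool, Pdcd1lg2 was highest in the T cell-like cluster 7, at 0.502, where the MKO pool had 0.557. B lineage-like nuclei of cluster 8 had 0.608 in the MKO pool and 0.391 in the control pool.

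Cd80 was 0.826 in MKO macrophage-like nuclei and 1.03 in control ones, a ratio of 0.799. Cd86 was 2.99 in MKO and 4.84 in control macrophage-like nuclei, a ratio of 0.617. In whole liver, by contrast, both genes had higher means in MKO livers, and whether the nuclei and the whole livers differ in this was not tested. The macrophage marker sum in cluster 2 was 71.2 in the MKO pool and 53.8 in the control pool, with none of the 13 at 0. As a share of that sum, Pdcd1lg2 gave a ratio of 8.61, Cd274 1.59, Cd80 0.605 and Cd86 0.467. The 7 sinusoidal endothelial markers summed to 20.2 in the MKO pool and 10.5 in the control pool of cluster 2, and its 8 hepatocyte markers summed to 70.9 in the MKO pool and 49.5 in the control pool. None of these markers was at 0. The 6 vascular endothelial markers summed to 8.71 in the MKO pool and 1.8 in the control pool, also with 0 at 0. The 9 conventional dendritic cell markers summed to 6.54 in the MKO pool and 4.67 in the control pool, with 1 at 0 in each. The part of these markers in the members' values was not tested.

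**Figure D3:**
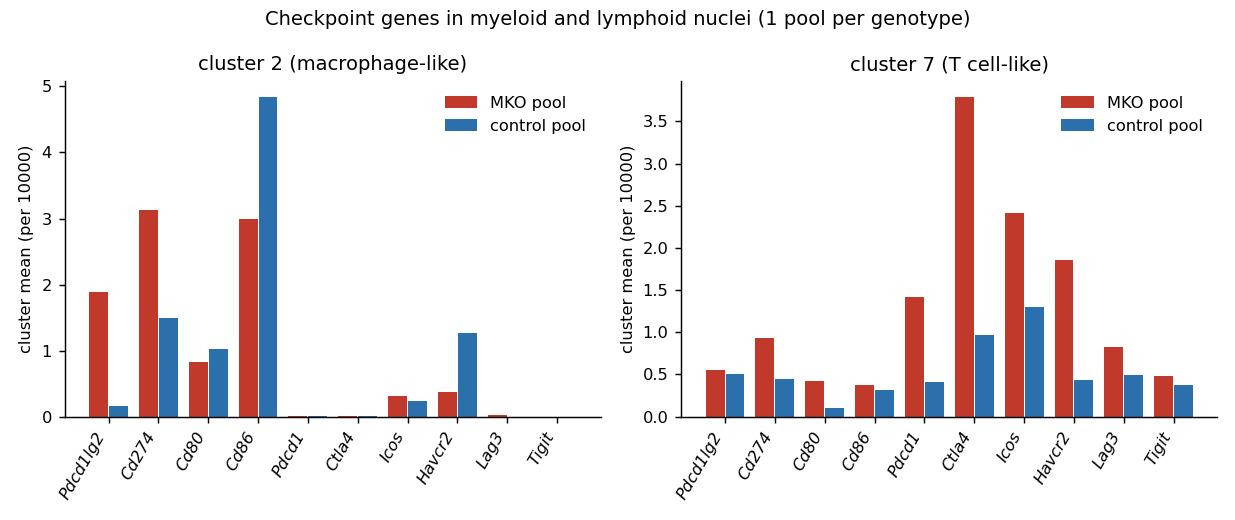
Cluster means of the 10 members (vertical axis, per 10000) in macrophage-like nuclei of cluster 2 and T cell-like nuclei of cluster 7, with the MKO pool left of the control pool and no error bars since each pool is 1 library. Pdcd1lg2 and Cd274 are higher and Cd86 and Havcr2 lower in the MKO pool in cluster 2, and Ctla4, Icos, Havcr2 and Pdcd1 are higher in the MKO pool in cluster 7.

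All 6 receptors were higher in T cell-like nuclei of the MKO pool. Ctla4 (chromosome 1, 60887000 to 60915832, + strand) was 3.79 in the MKO pool and 0.962 in the control pool of cluster 7, a ratio of 3.94. Pdcd1 (chromosome 1, 94038305 to 94052553, - strand) was 1.42 in the MKO pool and 0.411 in the control pool, a ratio of 3.46. Havcr2 was 1.86 in the MKO pool and 0.432 in the control pool, the largest of these ratios at 4.31. These 3 genes encode receptors that restrain T cells. Icos was 2.41 in the MKO pool and 1.3 in the control pool (ratio 1.85), and Lag3 was 0.821 in the MKO pool and 0.497 in the control pool (1.65). Tigit (chromosome 16, 43648867 to 43664146, - strand) stayed under the level for a ratio, at 0.487 in the MKO pool and 0.375 in the control pool.

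The T cell marker sum of cluster 7 was 67.9 in the MKO pool and 76.1 in the control pool, and its NK marker sum was 14.1 in the MKO pool and 10.2 in the control pool, with no marker of either list at 0. Its 13 macrophage markers summed to 6.09 in the MKO pool, with 0 of them at 0, and to 4.68 in the control pool, with 5 at 0. The 5 markers of division summed to 0.894 in the MKO pool and 0.267 in the control pool. As a share of the T cell sum the ratios were 4.82 for Havcr2, 4.41 for Ctla4, 3.87 for Pdcd1, 2.07 for Icos and 1.85 for Lag3. The make-up of the cluster was not tested as a part of these differences.

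In macrophage-like nuclei, Havcr2 ran the other way, at 0.37 in the MKO pool and 1.26 in the control pool, a ratio of 0.294. The highest Havcr2 value was thus in cluster 7 in the MKO pool and in cluster 2 in the control pool. As a share of the macrophage sum the ratio in cluster 2 was 0.223. Of the 5 members that reached the level in cluster 2, 2 were at least 2-fold higher in the MKO pool, beside 4.47% of genes, and 1 was at least 2-fold lower, beside 5.42%. Of the 7 that reached it in cluster 7, 4 were at least 2-fold higher, beside 4.91% of genes, and 0 were lower, beside 5.19%. These counts describe genes picked from the same pools.

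**Figure D4:**
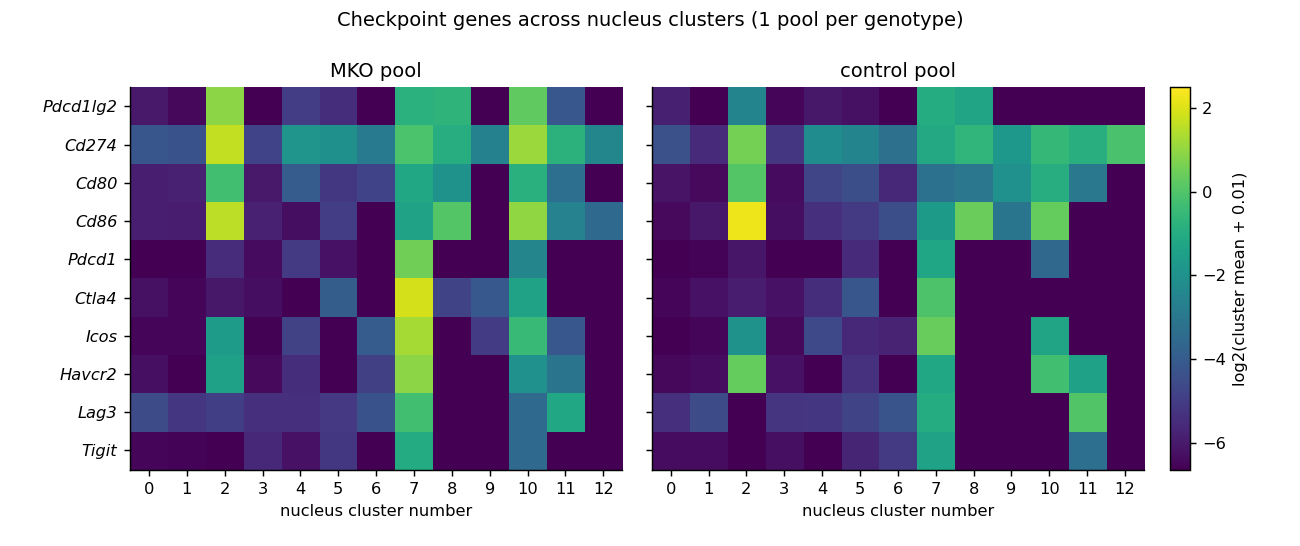
Cluster means of the 10 members (rows) as log2(value + 0.01) in 13 nucleus clusters (columns), with the MKO pool left of the control pool and brighter colour for a higher mean. Cd274, Cd80 and Cd86 are brightest in cluster 2 of both pools and Pdcd1, Ctla4, Icos and Tigit in cluster 7 of both, while Havcr2 is brightest in cluster 7 of the MKO pool and cluster 2 of the control pool.

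The dividing-gene cluster 10 followed cluster 2 for the PD-1 ligands. Pdcd1lg2 was 1.2 there in the MKO pool and listed at 0 in the control pool, and Cd274 was 2.18 in the MKO pool and 0.676 in the control pool. Havcr2 was 0.238 in the MKO pool and 0.816 in the control pool. Of 6 members at the level, 2 were at least 2-fold higher (14.7% of genes) and 1 at least 2-fold lower (15.3%). The macrophage marker sum of cluster 10 was 48.7 in the MKO pool and 18.3 in the control pool. Its 9 conventional dendritic cell markers summed to 7.91 in the MKO pool, with 0 at 0, and to 10 in the control pool, with 3 at 0. The part of either list in these values was not tested. Plasmacytoid dendritic cell-like nuclei of cluster 11 held Lag3 at 0.432 in the MKO pool and 0.996 in the control pool, the highest Lag3 value of the control pool. Mesothelial-like nuclei of cluster 12 held Cd274 at 0.173 in the MKO pool and 0.913 in the control pool.

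Cd274 was the one member with values above 0 in all 13 clusters of both pools. In cluster 4, which is led by the sinusoidal endothelial gene Stab2 and stayed unnamed, Cd274 was 0.263 in the MKO pool and 0.207 in the control pool. In stellate-like nuclei of cluster 5 it was 0.228 in the MKO pool and 0.163 in the control pool. For comparison, the highest value in the hepatocyte-like clusters 0 and 3, whose cells should lack the T cell receptors, was 0.0332 for Lag3 and 0.0448 for Cd274. None of the other 8 members exceeded 0.0102 there. Tigit values outside cluster 7 were at most 0.0903.

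The members Cd86 and Ctla4 had a highest cluster value within the top 10% of genes, at or above 3.44, and were compared with other genes over the 26 columns. Bank1, Fam49b and Ctsc had the patterns most like Cd86 (Pearson r of log2 values 0.9, 0.895 and 0.88). Trbc1, Cd3e and Camk4 had those most like Ctla4 (0.878, 0.835 and 0.825). In cluster 7, Trbc1 was 3.98 in the MKO pool and 3.87 in the control pool and Cd3e was 4.13 in the MKO pool and 3.02 in the control pool, so these T cell receptor genes differed less between the pools than Ctla4. The columns share 2 libraries and are no independent samples.

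Genes that act beside the members gave 6 calls among 42 measured in whole liver, all higher in MKO livers (2.96% of all genes), and 0 lower (0.0853%). At an unadjusted p under 0.05 in limma, 17 of the 42 were higher (8.37% of all genes) and 1 was lower (3.74%). The lower one, named after its value was seen, was Pvr, a ligand gene of TIGIT, with a log2 fold change of -0.53. The median log2 fold change was 0.38 over the 42 and -0.02 over all genes. The list of other inhibitory receptors and ligands held 4 of the calls among 7 measured genes. Cd244a, a receptor of NK cells, T cells and some myeloid cells, was read at 42.7, 71.4 and 90.5 in MKO livers, against 9.77, 4.199 and 8.87 in control livers. The groups do not overlap, and the log2 fold change was 3.01 ± 0.41 (SE; limma adjusted p = 0.00649). Its ligand gene Cd48 rose by 1.48 (adjusted p = 0.0167), the collagen receptor gene Lair1 by 1.48 (0.0229) and Sirpa, the gene of the receptor for the CD47 signal, by 0.98 (0.0188).

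Vsir, which encodes the checkpoint protein VISTA of myeloid cells and T cells, was the 1 call among 8 B7 and CD28 relatives. It was read at 262, 394 and 344 in MKO livers, against 148, 146 and 119 in control livers, and rose by 1.26 ± 0.18 on the log2 scale (SE; limma adjusted p = 0.00857). The 1 call among 6 partners of TIGIT, TIM-3 and LAG-3 was Lgals3, the gene of galectin-3, which rose by 1.22 (adjusted p = 0.017). None of 5 TNF superfamily costimulators, 8 T cell state genes and 8 inducers of the PD-1 ligands was called, and 4, 3 and 3 of them had an unadjusted p under 0.05 in limma. By their mean over the 6 libraries, the most abundant were Cd40 (log2 fold change 1.27, adjusted p = 0.219), Tox (-0.27, 0.711) and Jak1 (0.14, 0.782). Without control 2 the 6 calls became 3, and without MKO 2 or MKO 3 they became 2. Without MKO 1 they became 7, with Lair1 lost and other genes, not named here, gained. Vsir and Cd244a stayed called whichever library was left out. The call of Lair1 was also lost without MKO 1 (adjusted p = 0.0502) or control 2 (0.06), that of Sirpa without control 1 (0.0678) or control 2 (0.0775), and those of Lgals3 and Cd48 without control 3 (0.0507 and 0.0539). Lgals3 further lost its call without control 2 (0.0646), and Cd48 without control 1 (0.051).

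**Figure D5:**
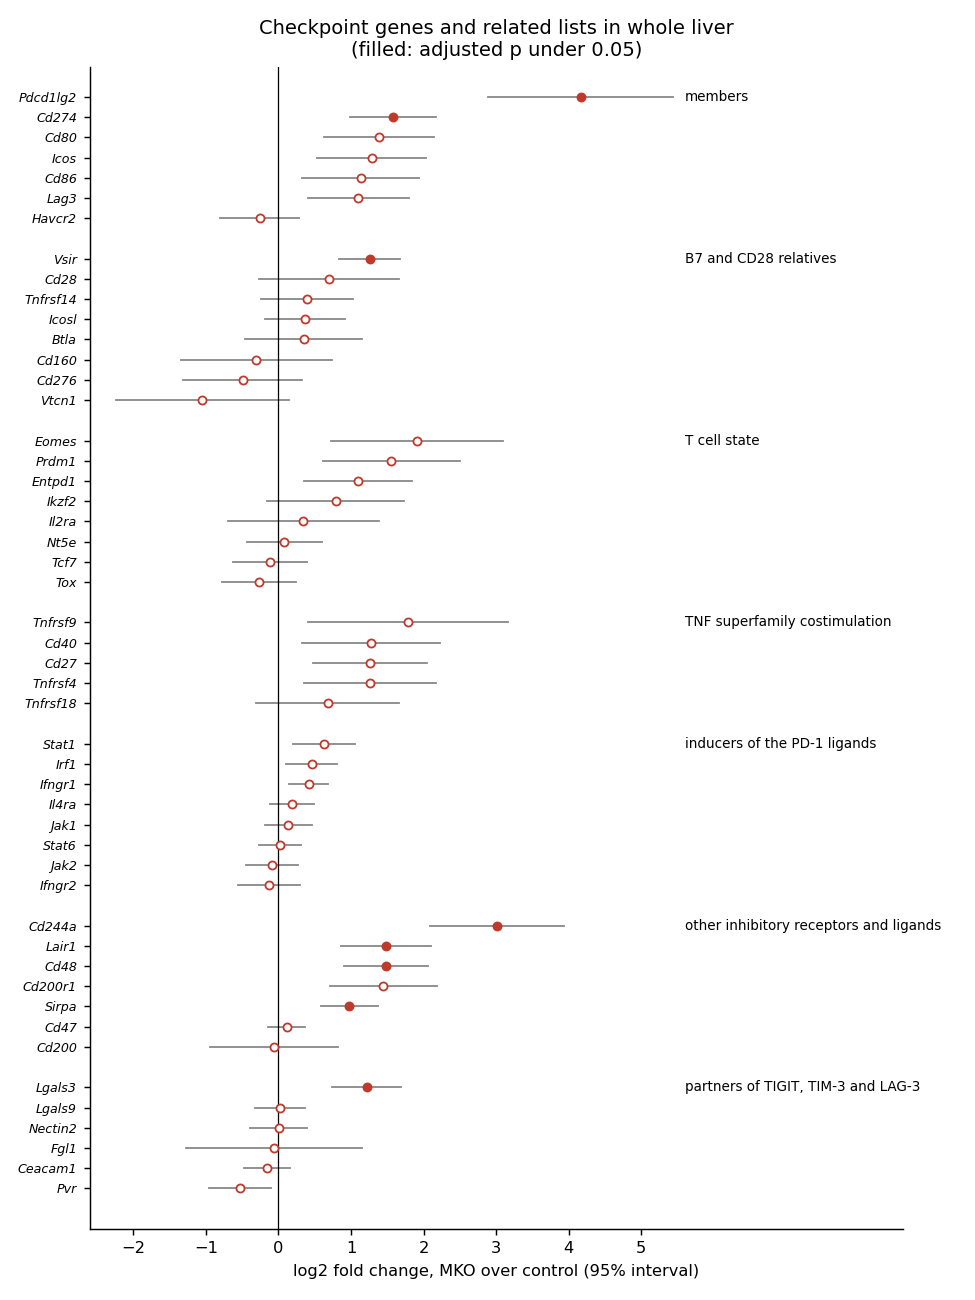
Log2 fold changes of MKO over control in whole liver (horizontal axis, log2(value + 1) scale) with 95% intervals for the 7 members and 42 related genes by list, filled where the adjusted p was under 0.05. Pdcd1lg2 and Cd244a lie farthest to the right at 4.16 and 3.01, an order that turns with a pseudocount of 5 (2.34 and 2.51), and no gene is called to the left of 0.

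In the nuclei, the related genes of cluster 2 showed 1 that was at least 2-fold higher in the MKO pool among 19 at the level, beside 4.47% of all genes, and 0 at least 2-fold lower, beside 5.42%. That gene was Cd244a, at 1.97 in the MKO pool and 0.67 in the control pool. Of the other genes called in whole liver, Cd48 was 3.23 in the MKO pool and 2.45 in the control pool of cluster 2. Sirpa was 10.9 in the MKO pool and 11.6 in the control pool, and Lair1 was 3.91 in the MKO pool and 4.8 in the control pool. Lgals3 was 2.39 in the MKO pool and 3.05 in the control pool, and Vsir was 0.714 in the MKO pool and 0.946 in the control pool. These 4 genes were thus not higher in MKO macrophage-like nuclei. In cluster 7, 5 of 32 genes at the level were at least 2-fold higher in the MKO pool, beside 4.91% of all genes, and 1 was at least 2-fold lower, beside 5.19%. Of these, 4 are TNF superfamily costimulatory receptors of T cells. Tnfrsf4 (OX40) was 0.751 in the MKO pool and 0.0817 in the control pool, and Tnfrsf9 was 1.13 in the MKO pool and 0.385 in the control pool. Tnfrsf18 (GITR) was 0.945 in the MKO pool and 0.383 in the control pool, and Cd27 was 1.97 in the MKO pool and 0.973 in the control pool. The other was Prdm1, the gene of the transcription factor Blimp-1, at 0.831 in the MKO pool and 0.256 in the control pool. Cd40lg, the gene of the ligand through which helper T cells activate other cells, was lower at 0.27 in the MKO pool and 0.595 in the control pool.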

How the data were processed

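The bulk values are a signal deposited by the authors: read counts per gene, scaled by a size factor in each library. Per the submitters' processing notes, the build was mm10 and the tools include STAR, RSEM 1.3.3 and DESeq2 for some step, as well as Cell Ranger and Seurat 4.0.1, with settings not given in the sources. The authors' log2 fold changes and their p-values were deposited in the same table and only set beside the values computed here. Each deposited signal was a whole multiple of 1 read (0.963 to 1.22), so reads could be recovered, with 100% of values whole to within 0.01 of a read. The authors' nucleus values, also a signal, are gene means for 13 clusters of 2 genotypes, and each of the 26 columns sums to 10000. No source used here says how nuclei were filtered, doublets treated or clusters averaged.

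Because the values are normalised, limma 3.58.1 (trend, R 4.3.3) compared genotypes on log2(value + 1), with no covariate, for 15249 genes whose mean reached 1 (34 left out), with Benjamini-Hochberg adjustment and calls under 0.05. The alternatives on recovered reads were edgeR's quasi-likelihood test (4.0.16) and DESeq2 (1.42.0). The limma, edgeR and DESeq2 fits were checked on simulated reads with the same dispersion for every gene. That check did not cover the other alternatives, or a gene near 0 in controls alone such as Pdcd1lg2. Within a genotype, every pair of libraries differed beyond counting error (chi-square 29.7 to 77.0 for each degree of freedom), and none was treated as a duplicate. Nothing in the labels ties the libraries to separate animals, so the p-values reflect only the spread among these libraries, which may be technical. A cluster was named where a marker list had the most markers at least 2-fold above the median of the other clusters in both pools, with at least 3 of them. Cluster 9 was an exception. The sinusoidal endothelial list led there with 7 of 7 markers, but its leading genes Vwf and Mecom went against that name. It was left unnamed by hand. Members and lists were chosen with earlier results of these data known. All members are named, and of each related list the called genes (at most 4, by smallest p) or else the most abundant member. In nuclei, related genes past 2-fold in clusters 2 and 7 are named as well, and whole-liver calls are given in cluster 2. Both are outside that rule and were chosen after their values were seen.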

Additional observations from a re-analysis of the deposited data

Results flagged for a closer look

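Cd274 differed in opposite directions between clusters. The ratio of the MKO pool over the control pool was 2.1 in macrophage-like nuclei of cluster 2 and 2.07 in T cell-like nuclei of cluster 7, and 0.19 in mesothelial-like nuclei of cluster 12. The smallest value above 0 in cluster 12 was 0.0353 in the MKO pool and 0.0826 in the control pool. Cd274, at 0.173 in the MKO pool and 0.913 in the control pool, was 4.9 times that value in the MKO pool and 11 times in the control pool. Havcr2 had a ratio of 0.294 in cluster 2 and 4.31 in cluster 7. Each cluster has 1 pool per genotype, so these differences between clusters were not tested.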

How the results depend on the processing

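The direction of the 7 whole-liver members held under all 14 alternatives (another normalisation, edgeR, DESeq2, pseudocounts of 0.5 and 5, other filters, a replicate block and leaving out each library), with adjusted p from 0.000316 to 0.0569 for Pdcd1lg2 and from 9.98e-07 to 0.0743 for Cd274. The Pdcd1lg2 log2 difference ranged from 2.34 (pseudocount 5) to 5.94 (DESeq2). Members called higher ranged from 0 to 2 when 1 library was left out, and DESeq2 called 3. Related genes called higher ranged from 2 to 7 when 1 library was left out, and DESeq2 called 10. The cause of these differences beyond the smaller number of libraries was not tested. The Tgfbr1 log2 difference ranged from -0.27 to 0.035 when 1 library was left out and changed sign without MKO replicate 1. Over all genes, calls higher in MKO ranged from 175 to 410 and lower from 5 to 31 when 1 library was left out, and DESeq2 made 634 and 50. The ratios against the dendritic cell markers moved without Zbtb46 to 1.04 for Cd274, 0.968 for Cd80 and 0.729 for Cd86. With the replicate number as a block, 2 members were called (adjusted p 0.0173 for Pdcd1lg2 and 0.0232 for Cd274), as were 6 related genes and, of all genes, 391 higher and 17 lower. The same-numbered libraries deviated with correlations of 0.0557, -0.03 and -0.109, and the different-numbered ones with -0.106 to 0.15. The labels give no link beyond the number. So few correlations cannot show whether same-numbered libraries shared anything else. The depth of the nucleus means is unknown, and Pdcd1lg2 rests on 66 reads in MKO and 1 in control libraries.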
